A study of Mus musculus with 32 samples.

Results

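The genes described here encode the proteasome, the protease complex that degrades ubiquitin-tagged proteins. They were taken by name, as the protein-coding mouse genes whose symbols begin with Psma, Psmb, Psmc, Psmd, Psme, Psmf or Psmg followed by a number, which gave 49 genes of the 37441 in the table. RNA-seq read counts came from oocytes of D2, B6xD2 F1 and B6 female mice aged 8 to 12 weeks, at metaphase II (MII, the mature egg arrested before fertilization) and at the germinal vesicle stage (GV, the full-grown oocyte before it resumes meiosis). The MII groups held 5 libraries of D2, 5 of F1 and 6 of B6, and the GV groups held 5 libraries of D2, 6 of F1 and 5 of B6. Each library pooled 9 to 20 oocytes, all from the same mother, GV oocytes were collected in medium with the phosphodiesterase inhibitor IBMX, and zonae were removed from all. The labels name no engineered allele. Each group was spread over 2 sequencing batches, with 9 MII and 9 GV libraries in batch 1 and 7 MII and 7 GV libraries in batch 2. The date codes in the library names divide batch 2 into 2 sets, with all 5 B6 libraries in 1 set and the D2 and F1 libraries in both. Batch entered the tests with 2 levels, and calls lost with 3 levels are given beside the comparisons within and between strains.

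As background, the 20S core of the proteasome is a barrel of stacked rings. Its outer rings are made of alpha subunits, which gate the entrance, and its inner rings of beta subunits, a few of which cut proteins. The 19S particle docks on the barrel, where its ATPases unfold proteins and its non-ATPase subunits hold and remove ubiquitin chains. Other activators dock on the same surface, and dedicated chaperones build the particles. In oocytes, proteasomal destruction of cyclin B and securin is needed to leave metaphase I.

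Total counts ran from 26.8 to 35.9 M reads in the MII libraries and from 18.7 to 39.7 M reads in the GV libraries. Levels are given as CPM, counts-per-million of the library after TMM scaling, so they are shares of the library and not amounts per oocyte. In bulk samples such as these, fewer cells of a type and less RNA per cell cannot be told apart. Oocyte markers were read in every group, with a summed level of 11897 to 17171 CPM in MII libraries and 12414 to 17711 CPM in GV libraries. Markers of granulosa and cumulus cells, the follicle cells that surround the oocyte, summed to 295 to 484 CPM over 25 genes in MII libraries and to 322 to 4203 CPM in GV libraries. Stroma and blood markers summed to 35.8 to 79.2 CPM in MII and 23.0 to 666 CPM in GV libraries, and immune cell markers to 7.21 to 49.4 CPM in MII and 9.41 to 79.7 CPM in GV libraries.

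Proteasome transcripts did not move as a block between MII and GV. The 20S beta ring, whose members include the proteolytic subunits, had the lowest median change of the 6 classes with every member tested, while the alternative activators Psme3 and Psme4 and the 19S scaffold subunits Psmd1 and Psmd3 rose. Of the 49 genes, 47 had enough reads to be tested, and Psma8 and Psmb8 did not. By edgeR's quasi-likelihood test, with p-values adjusted by Benjamini-Hochberg over all 19003 genes and MII set against GV as the mean of the 3 strains, 6 proteasome genes were higher, 34 were lower and 7 did not pass the adjusted threshold of 0.05. Over all genes tested, 22.9% were higher and 29.0% were lower. With library totals in place of TMM scaling, 4 proteasome genes were higher and 40 lower, against 9.40% higher and 37.7% lower of all genes. The median log2 change was −0.57 over the 47 proteasome genes and −0.06 over all genes.

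**Figure D1:**
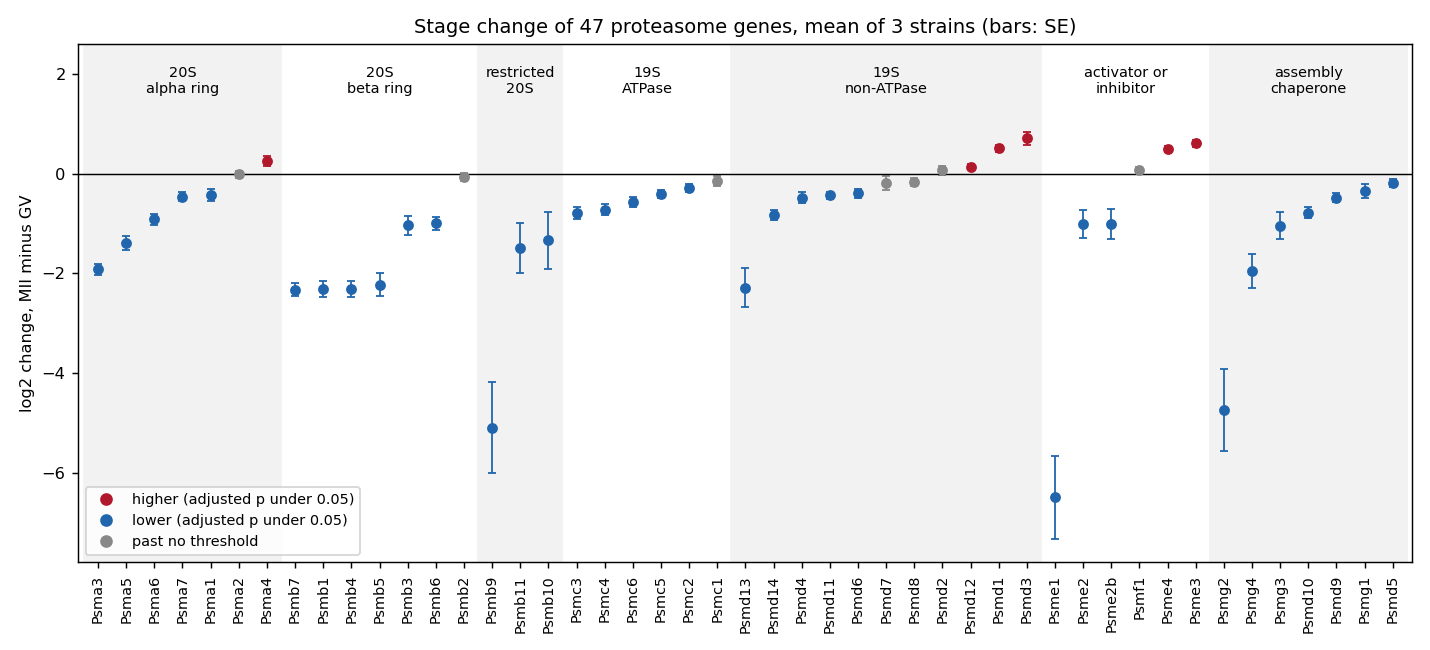
Log2 change of each tested proteasome gene in MII against GV oocytes, as the mean of the 3 strains, ordered by role, with bars of 1 SE. The beta ring reaches −2.33 (Psmb7), Psmb9 (−5.10), Psmg2 (−4.75) and Psme1 (−6.50), which have few or no reads in MII, lie lower still, and Psme4, Psme3, Psmd1 and Psmd3 lie above 0 at 0.50 to 0.71.

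Summed over a class, MII was lower in some classes and higher in another. The 7 beta ring genes of the constitutive core summed to 157 ± 55.1 CPM in MII oocytes and 373 ± 129 CPM in GV oocytes (SD, n = 16 each). In batch 1 the beta ring sums were 161 to 226 CPM in MII libraries and 431 to 512 CPM in GV libraries. In batch 2 they were 88.6 to 118 CPM in MII libraries and 183 to 294 CPM in GV libraries. The stages did not overlap within either batch, and both stages were lower in batch 2. The 6 activator and inhibitor genes summed to 1358 ± 176 CPM in MII and 982 ± 147 CPM in GV oocytes. Again no library overlapped within a batch, with 1114 to 1489 CPM in MII against 820 to 1030 CPM in GV in batch 1, and 1375 to 1690 CPM in MII against 994 to 1263 CPM in GV in batch 2. The 19S non-ATPase sum was 721 ± 45.2 CPM in MII and 743 ± 76.7 CPM in GV oocytes, and that of the 19S ATPases 298 ± 56.9 CPM in MII and 389 ± 69.7 CPM in GV oocytes. All 49 genes together summed to 3096 ± 232 CPM in MII and 3226 ± 356 CPM in GV oocytes.

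Promoter windows were searched for motifs as a description of sequence, and their relation to the changes in level was not tested. Stretches are printed below for the beta ring genes Psmb4 and Psmb5, which fell, and for Psme3, an activator that rose. They are also printed for Psmb3, a beta ring gene, and Psmd9, a chaperone, which fell and also differed between strains. RefSeq's table for GRCm38.p6 held a window of 250 bases before to 50 after the start for 41 of the 49 genes. The core of the antioxidant response element, the letters TGACNNNGC searched on both strands, was found in 6 of these 41 windows (14.6%) and in 14.0% of the windows of 27025 genes. It was in the windows of Psmb5, Psmb6, Psmc6, Psmd9, Psmd12 and Psme4, that is in 4 of 30 lower genes (13.3%) and 2 of 5 higher genes (40.0%). The CCAAT box, on both strands, was in 14 of the 41 windows (34.1%) and in 41.1% of all windows, with 5 of 7 alpha ring genes. No window held both motifs. Psma8, Psmb1, Psmb2, Psmb7, Psmc3, Psmd3, Psmd7 and Psmg2 were not searched. A match is a description of the sequence and not of binding. The 100 bases before each start are printed 5′ to 3′ on the gene's strand, with any match to either motif in capitals (ATTGG is CCAAT on the other strand).
Psmb4 (chr3:94886959-94887058, minus strand): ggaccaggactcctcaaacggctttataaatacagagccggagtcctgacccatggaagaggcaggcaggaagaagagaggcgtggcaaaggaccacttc
Psmb5 (chr14:54617996-54618095, minus strand): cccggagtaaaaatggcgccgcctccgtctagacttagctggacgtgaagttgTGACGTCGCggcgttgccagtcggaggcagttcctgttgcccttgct
Psmb3 (chr11:97703334-97703433, plus strand): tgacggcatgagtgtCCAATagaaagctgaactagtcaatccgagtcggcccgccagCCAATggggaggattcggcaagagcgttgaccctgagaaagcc
Psmd9 (chr5:123228090-123228189, plus strand): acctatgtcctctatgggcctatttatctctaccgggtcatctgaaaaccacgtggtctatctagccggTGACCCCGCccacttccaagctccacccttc
Psme3 (chr11:101316113-101316212, plus strand): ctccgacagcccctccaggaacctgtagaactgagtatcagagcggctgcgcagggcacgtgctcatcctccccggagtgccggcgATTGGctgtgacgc

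The alpha ring forms the gate of the core, and 5 of its 7 genes fell while 1 rose, with a median log2 change of −0.46. Of all genes, 29.0% were lower and 22.9% higher. Psma3, an alpha subunit encoded at chr12:70969283-70995877 (plus strand), had 5.03 CPM in its lowest, 9.10 CPM in its median and 16.7 CPM in its highest MII library, against 17.5, 36.1 and 57.7 CPM in GV libraries. Every MII library lay below every GV library. Its log2 change was −1.92 ± 0.11 (SE), 3.77-fold lower in MII (adjusted p = 3.44e-16). Psma5, whose gene lies at chr3:108256926-108279952 (plus strand), ran from 5.46 CPM through a median of 17.4 to 37.3 CPM in MII libraries and from 19.8 through 53.0 to 80.8 CPM in GV libraries. These ranges overlapped over both batches together but not inside either, at 14.6 to 37.3 CPM in MII and 49.5 to 80.8 CPM in GV in batch 1, and 5.46 to 14.1 CPM in MII and 19.8 to 37.1 CPM in GV in batch 2. The log2 change of Psma5 was −1.39 ± 0.14 (adjusted p = 1.90e-10). Psma6 fell by 0.92, Psma7 by 0.46 and Psma1 by 0.43 on the log2 scale.

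Not every alpha subunit followed. Psma2 had a lowest, median and highest level of 59.6, 192 and 319 CPM in MII libraries and 77.5, 206 and 268 CPM in GV libraries. The stages overlapped almost fully, and its log2 change was −0.02 (adjusted p = 0.866). Psma4 had 27.1, 47.5 and 88.7 CPM in MII and 20.2, 38.3 and 76.9 CPM in GV libraries, which also overlapped. Its call as higher, with a log2 change of 0.25 ± 0.10 (adjusted p = 0.0442), was lost when any of 21 of the 32 libraries was left out.

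In the beta ring 6 of 7 genes fell, against 29.0% of all genes, none rose, and the median log2 change was −2.24. The catalytic subunits are Psmb5, with chymotrypsin-like activity, Psmb6, with caspase-like activity, and Psmb7, with trypsin-like activity. Psmb7 (chr2:38588046-38643952, minus strand) had a lowest, median and highest level of 12.7, 19.6 and 52.2 CPM over the MII libraries, against 56.5, 131 and 141 CPM over the GV libraries. No MII library reached the lowest GV library. Psmb7 was 5.02-fold lower in MII, with a log2 change of −2.33 ± 0.12 (adjusted p = 5.24e-17). Psmb5 (chr14:54614120-54617995, minus strand) had 0.477, 4.26 and 12.0 CPM in MII and 8.32, 20.1 and 29.5 CPM in GV libraries. Its stages overlapped over all libraries but not within batch 1, at 0.720 to 12.0 CPM in MII and 14.8 to 24.6 CPM in GV, nor within batch 2, at 0.477 to 4.61 CPM in MII and 8.32 to 29.5 CPM in GV. Its log2 change was −2.24 ± 0.23 (adjusted p = 6.87e-10). Psmb6 had 11.1, 25.9 and 46.5 CPM in MII and 16.2, 66.9 and 88.0 CPM in GV libraries, which overlapped, with a log2 change of −1.0 ± 0.13 (adjusted p = 6.84e-08).

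Among the beta subunits without a cutting site, Psmb4 (chr3:94884324-94886958, minus strand) ran from 2.64 CPM through a median of 8.65 to 18.6 CPM in MII libraries and from 9.60 through 65.1 to 103 CPM in GV libraries. Within batch 1 it was at 5.59 to 18.6 CPM in MII and 62.4 to 103 CPM in GV, and within batch 2 at 2.64 to 8.59 CPM in MII and 9.60 to 24.6 CPM in GV. The stages were apart in each batch, and the log2 change was −2.31 ± 0.16 (adjusted p = 5.14e-14). Psmb1 (chr17:15475721-15498276, minus strand) had 1.15, 6.09 and 11.5 CPM in MII and 12.9, 33.6 and 58.1 CPM in GV libraries, so every MII library was below every GV library. Its log2 change was −2.32 ± 0.17 (adjusted p = 6.83e-14). Psmb3 changed by −1.04 ± 0.19 (adjusted p = 1.73e-05), and its call was lost in batch 2 alone and, at −0.83, with the granulosa level as a covariate (adjusted p = 0.135). Psmb2 was the beta ring gene without a call, at 34.9, 90.4 and 123 CPM in MII and 40.8, 92.3 and 118 CPM in GV libraries, and a log2 change of −0.07 (adjusted p = 0.471). Per kb of transcript, Psmb7 averaged 19.6 CPM per kb in MII and 99.1 CPM per kb in GV oocytes, and Psmb2 averaged 96.1 CPM per kb in MII and 98.2 CPM per kb in GV oocytes.

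**Figure D2:**
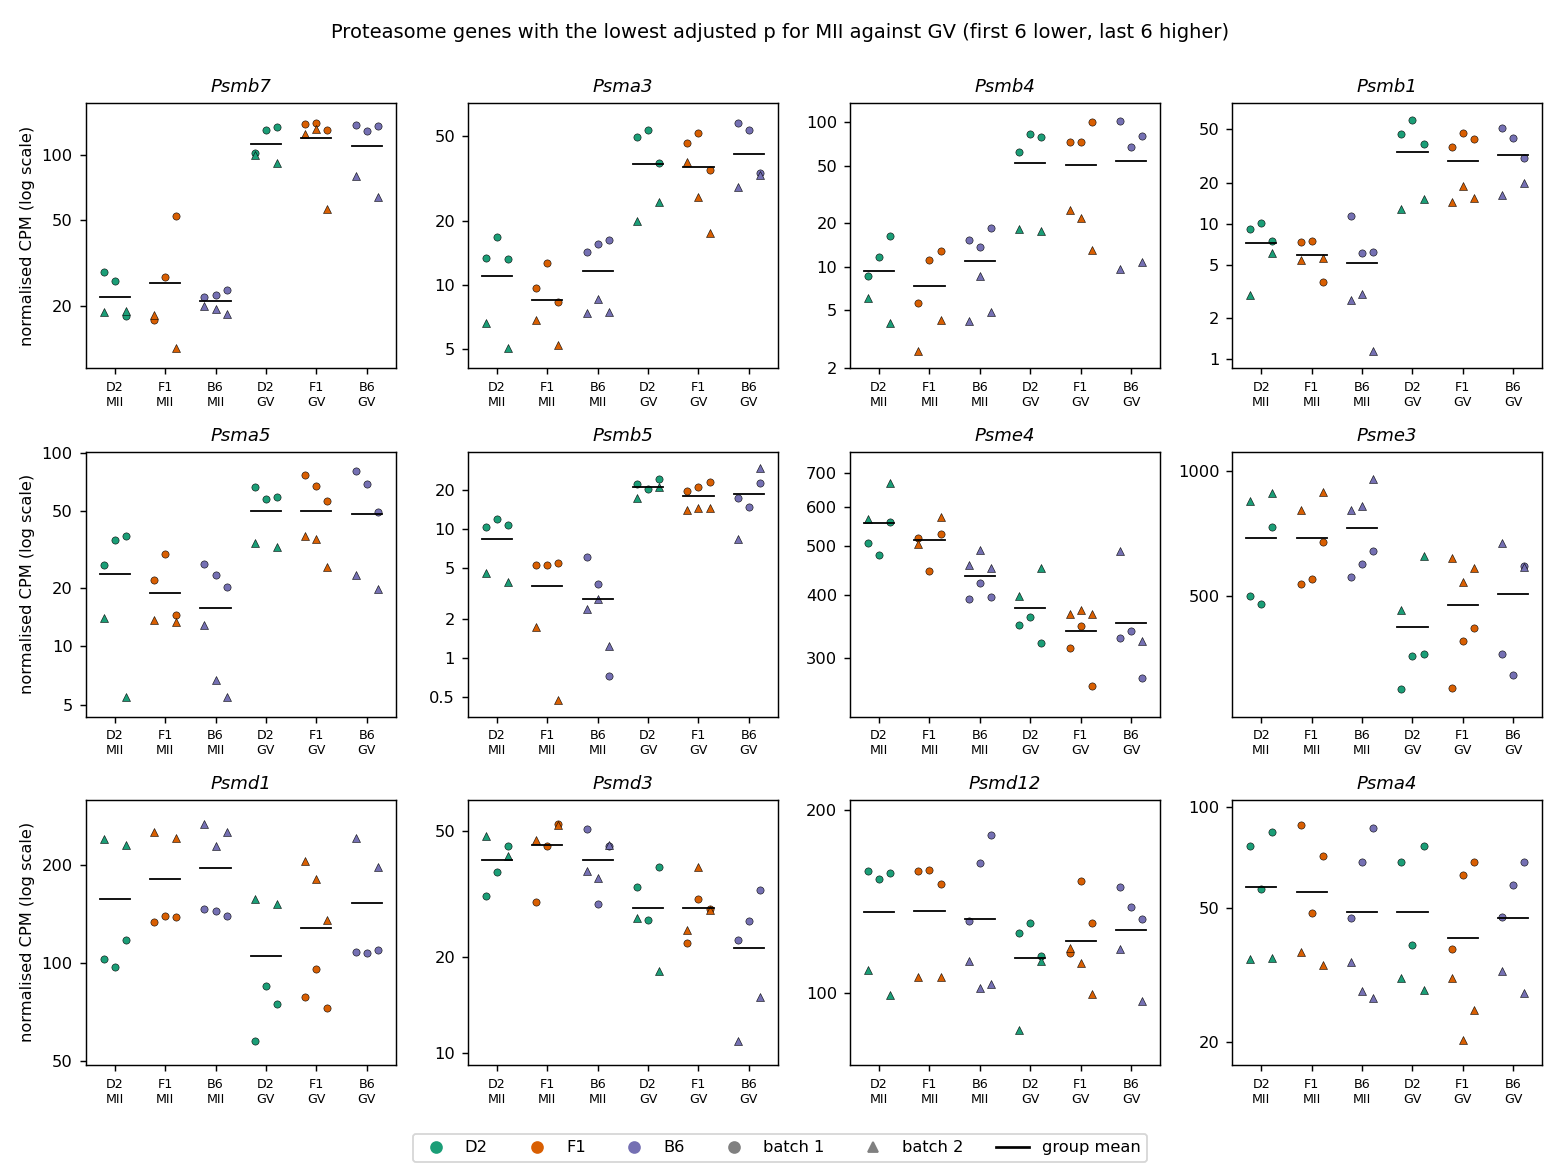
Levels in CPM (log axis) of the genes with the lowest adjusted p in MII against GV, 1 panel per gene, MII left of GV, with circles for batch 1, triangles for batch 2 and a black line for the group mean. Psmb7, Psma3 and Psmb1 show no overlap between stages, and Psme4 and Psme3 are higher in MII.

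The immunoproteasome and tissue-restricted core subunits were near the limit of detection. Psmb8, an interferon-inducible catalytic subunit, had 9 reads in all over the 16 MII libraries, 11 of which had none, and 80 reads over the 16 GV libraries, 6 of which had none. Psma8, the alpha subunit of the spermatocyte proteasome, had 12 reads over the MII libraries, 10 of which had none, and 60 reads over the GV libraries, 7 of which had none. Neither was tested. Psmb9, another inducible catalytic subunit, had a lowest, median and highest level of 0, 0 and 0.369 CPM in MII libraries and 0, 0.301 and 2.38 CPM in GV libraries. The stages overlapped, since 14 MII and 4 GV libraries had no read, and the test called Psmb9 lower (adjusted p = 3.31e-05). Set against a floor of 3 counts over the group, Psmb9 was at least 30.6-fold lower in F1 MII than in F1 GV oocytes, where it averaged 0.695 CPM, and at least 12.3-fold lower in D2 MII than in D2 GV oocytes, where it averaged 0.259 CPM. Of the 115 reads in F1 GV, 57 came from F1 GV batch 1 replicate 5, and without it the bound was 15.8-fold. For D2 the bound was 8.52-fold without D2 GV batch 1 replicate 5. Psmb9 had reads in B6 MII libraries, so no bound is given for B6. In B6 none of the 3 tested inducible and restricted core subunits was called, with log2 changes of −1.76 to −0.95. Psmb10, the third inducible subunit, had 0, 0.480 and 1.46 CPM in MII and 0.201, 0.919 and 2.65 CPM in GV libraries, with a log2 change of −1.34 ± 0.57 (adjusted p = 0.0491) that was lost on leaving out any of 23 of the 32 libraries and was 0.06 in batch 2 alone. Psmb11, the thymus-restricted subunit, had 0, 0.440 and 2.81 CPM in MII and 0.347, 1.71 and 5.42 CPM in GV libraries, with a log2 change of −1.50 ± 0.50 (adjusted p = 0.0118). With the granulosa level as a covariate the log2 change was −3.70 for Psmb9 (adjusted p = 0.120), −0.61 for Psmb10 (adjusted p = 0.779) and −2.18 for Psmb11 (adjusted p = 0.174).

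The 19S ATPases, which unfold proteins and open the gate, changed less than the beta ring. Of the 6 genes, 5 were lower, against 29.0% of all genes, and none was higher, with a median log2 change of −0.49 and a range of −0.79 to −0.15. Psmc3 averaged 26.8 ± 7.20 CPM in MII and 46.4 ± 16.7 CPM in GV oocytes (SD, n = 16 each), a log2 change of −0.79. Psmc4 fell by 0.72, Psmc6 by 0.57, Psmc5 by 0.41 and Psmc2 by 0.29 on the log2 scale, and Psmc1, at −0.15, was not called.

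The 19S non-ATPase subunits split in direction, with 3 higher (27.3%), 5 lower (45.5%) and 3 not called. Of all genes, 22.9% were higher and 29.0% lower. Psmd1 and Psmd3, structural scaffold subunits, were among the 3 higher. Psmd1 (chr1:86064619-86139295, plus strand) had a lowest, median and highest level of 97.4, 146 and 267 CPM in MII and 57.8, 109 and 241 CPM in GV libraries. The ranges overlapped, with batch 2 libraries at the top of each. The log2 change within the model with batch was 0.50 ± 0.06, 1.42-fold higher in MII (adjusted p = 2.54e-08). Psmd3 (chr11:98682554-98695978, plus strand) had 29.5, 44.8 and 52.6 CPM in MII and 10.9, 26.4 and 38.4 CPM in GV libraries, which overlapped between 29.5 and 38.4 CPM, and a log2 change of 0.71 ± 0.13 (adjusted p = 1.32e-05). Psmd12, a lid subunit, had 99.2, 141 and 182 CPM in MII and 86.8, 118 and 153 CPM in GV libraries. Its log2 change of 0.14 ± 0.06 (adjusted p = 0.0426) was lost on leaving out any of 17 of the 32 libraries, was −0.08 in batch 2 alone and was −0.09 with library totals in place of TMM scaling. Among the lower genes, Psmd14, the deubiquitinase of the lid, averaged 15.6 ± 6.28 CPM in MII and 27.2 ± 6.85 CPM in GV oocytes, a log2 change of −0.83. Psmd13 had the steepest change, −2.29 ± 0.38 (adjusted p = 6.22e-06), at 0.605 ± 0.568 CPM in MII and 2.69 ± 2.15 CPM in GV oocytes, and it changed by −1.58 with the granulosa level as a covariate (adjusted p = 0.140). Psmd4, an intrinsic ubiquitin receptor, fell by 0.49, Psmd11 by 0.44 and Psmd6 by 0.40 on the log2 scale, and Psmd2, Psmd7 and Psmd8 were not called.

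The activators went in opposite directions. Psme3, the subunit of the nuclear activator PA28 gamma (chr11:101316213-101323537, plus strand), had 477, 704 and 957 CPM as its lowest, median and highest level in MII libraries and 297, 440 and 670 CPM in GV libraries. The stages overlapped over all libraries but were apart in batch 2, at 804 to 957 CPM in MII and 462 to 670 CPM in GV. Its log2 change was 0.60 ± 0.07, 1.52-fold higher in MII (adjusted p = 2.13e-08). Per kb of transcript Psme3 was the most abundant of the 49 genes at both stages, averaging 265 CPM per kb in MII and 175 CPM per kb in GV oocytes, ahead of Psma7 at 109 CPM per kb in MII and 153 CPM per kb in GV oocytes. Psme4, the activator PA200 (chr11:30771775-30881150, plus strand), had 393, 499 and 670 CPM in MII and 265, 348 and 490 CPM in GV libraries. These overlapped over all libraries but not in batch 1, at 393 to 560 CPM in MII and 265 to 363 CPM in GV. Its log2 change was 0.50 ± 0.06, 1.41-fold higher in MII (adjusted p = 3.02e-09), and per kb it ranked 4 of 49 in MII and 11 of 49 in GV oocytes. Psme1 (chr14:55578494-55581527, plus strand), which with Psme2 forms the interferon-inducible cytosolic activator PA28 alpha beta, had 0, 0.0331 and 0.811 CPM in MII and 0, 5.78 and 28.8 CPM in GV libraries. It had 81 reads over the 16 MII libraries, 7 of which had none, against 3718 reads over the 16 GV libraries, 1 of which had none. It was called lower (adjusted p = 2.51e-07), and its log2 change was −2.64 with the granulosa level as a covariate (adjusted p = 0.0764).

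Psme2 had 0.158, 2.50 and 6.0 CPM in MII and 2.03, 6.19 and 12.6 CPM in GV libraries, a log2 change of −1.01 ± 0.28 (adjusted p = 0.00262). The near-identical Psme2b had 0.119, 2.00 and 5.32 CPM in MII and 1.13, 4.33 and 9.08 CPM in GV libraries, a log2 change of −1.01 ± 0.30 (adjusted p = 0.00526). The split of reads between this pair is uncertain, and with the granulosa level as a covariate the log2 change was −0.30 for Psme2 (adjusted p = 0.774) and −0.18 for Psme2b (adjusted p = 0.888). Psmf1, the inhibitor PI31, had 102, 151 and 197 CPM in MII and 99.7, 142 and 193 CPM in GV libraries. Its stages overlapped throughout, and the log2 change of 0.07 did not pass the threshold (adjusted p = 0.372).

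All 7 assembly chaperones were called lower, against 29.0% of all genes, with a median log2 change of −0.78. With the granulosa level as a covariate the calls of Psmg1 to Psmg4 and Psmd5 were lost, and Psmd9 and Psmd10 kept theirs. In batch 2 alone those of Psmg1, Psmg2 and Psmg3 were lost. Psmg1 and Psmg2 pair to build the alpha ring. Psmg1 had 4.05, 12.2 and 21.9 CPM in MII and 3.25, 15.8 and 28.1 CPM in GV libraries, with broad overlap, and its log2 change of −0.35 ± 0.15 (adjusted p = 0.0435) was lost on leaving out any of 18 of the 32 libraries. Psmg2 had 14 reads over the 16 MII libraries, 12 of which had none, and 282 reads over the 16 GV libraries, 1 of which had none. Against a floor of 3 counts it was at least 23.1-fold lower in F1 MII than in F1 GV oocytes, where it averaged 0.525 CPM, and at least 15.6-fold lower without F1 GV batch 1 replicate 5. Within strains Psmg2 was called lower in D2 and F1 and not in B6. Psmg3 and Psmg4 form the other pair. Psmg3 had 0.0638, 1.02 and 4.75 CPM in MII and 0.658, 3.32 and 8.70 CPM in GV libraries, a log2 change of −1.05 ± 0.27 (adjusted p = 0.00121). Psmg4 had 0.0423, 0.802 and 9.01 CPM in MII and 0.736, 6.62 and 11.4 CPM in GV libraries, a log2 change of −1.95 ± 0.34 (adjusted p = 9.02e-06). Both overlapped between the stages. The chaperones of the 19S base, Psmd10, Psmd9 and Psmd5, fell by 0.78, 0.49 and 0.19 on the log2 scale, and the call of Psmd5 was lost on leaving out any of 16 of the 32 libraries.

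Granulosa and cumulus markers also fell in MII, with 19 of 24 tested lower and 2 higher, so their level moved with the stage. Over all genes the shares were 29.0% lower and 22.9% higher, and among 16 oocyte markers 8 were lower and 6 higher. Of the stroma and blood markers 11 of 13 tested were also lower and 1 was higher, and of the immune cell markers 4 of 10 tested were lower. The part of stroma, blood and immune cells in the proteasome result was not tested. With the mean log2 CPM of the granulosa and cumulus markers as a covariate, 4 proteasome genes were higher and 19 lower, against 5.53% higher and 8.08% lower of all genes. The 15 lower calls lost under it were those of Psma1, Psmb3, Psmb9, Psmb10, Psmb11, Psmd4, Psmd5, Psmd13, Psme1, Psme2, Psme2b and Psmg1 to Psmg4. Some of these changes were no smaller under the covariate, although their adjusted p was above 0.05, such as −0.49 for Psma1 and −2.18 for Psmb11, and others were smaller, such as −0.38 for Psmg3 and −0.57 for Psmg2. Psmb7 (−2.51 log2, adjusted p = 5.64e-11), Psma3 (−2.09, adjusted p = 2.65e-10), Psmb1 (−2.09, adjusted p = 1.11e-06), Psmb4 (−1.99, adjusted p = 1.54e-06) and Psmb5 (−2.28, adjusted p = 0.000107) stayed past the threshold, as did Psme3 at 0.39 and Psme4 at 0.28 (adjusted p = 0.0432 for each). In 2 GV libraries, B6 GV batch 2 replicate 1 and D2 GV batch 2 replicate 2, the granulosa level lay within the range of the MII libraries. Both were in the fit that called the genes, so their values are a description. Psmb7 was at 12.7 to 19.9 CPM in the MII libraries of batch 2, against 80.0 and 92.1 CPM in these GV libraries. Psma3 was at 5.03 to 8.59 CPM in the MII libraries of batch 2, against 29.0 and 24.6 CPM in these GV libraries. Psme3 was at 804 to 957 CPM in those MII libraries, against 670 and 623 CPM in the 2 GV libraries. Psmd3 was at 35.4 to 52.2 CPM, against 10.9 and 18.1 CPM. Psme4 overlapped, at 453 to 670 CPM against 490 and 452 CPM, as did Psmd1, at 229 to 267 CPM against 241 and 151 CPM. Both GV libraries lay above all MII libraries of batch 2 for 13 of 34 lower genes, and below them for 2 of 6 higher genes. This share was not computed over all genes. Psme1 was at 0 to 0.811 CPM in the MII libraries of batch 2 and at 0 and 2.31 CPM in these GV libraries, where Psmb9 had no read in either and Psmg2 was at 0.0473 and 0 CPM.

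**Figure D3:**
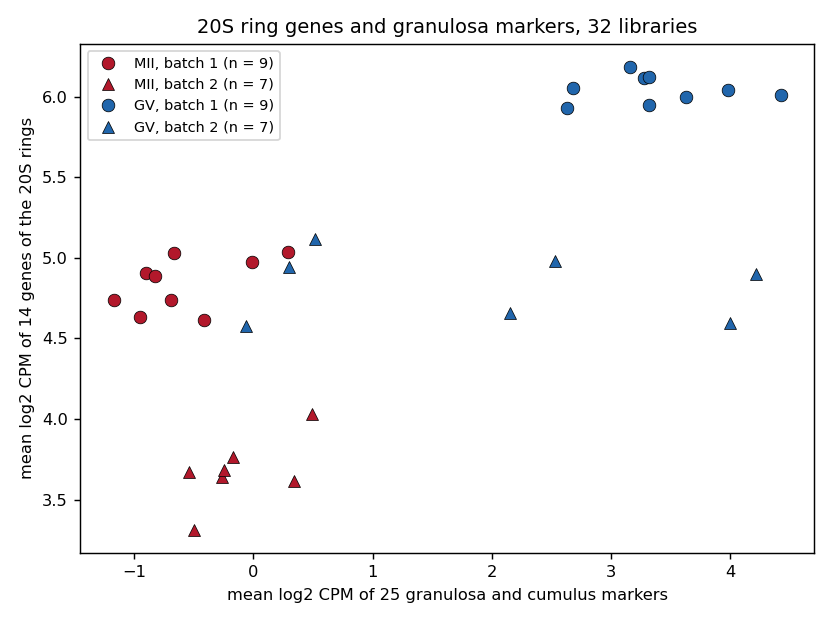
Mean log2 CPM of the 14 constitutive 20S ring genes (vertical axis) against mean log2 CPM of 25 granulosa and cumulus markers (horizontal axis), 1 point per library, circles for batch 1 and triangles for batch 2. MII libraries lie at 3.31 to 5.03 and GV libraries at 4.58 to 6.18, and within each batch MII lies lower, also beside the 2 GV libraries with the lowest granulosa level.

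The proteasome genes also differed between the batches, each of which held both stages. Of the 47 genes, 35 were lower and 5 higher in batch 2 than in batch 1, against 23.6% lower and 18.8% higher of all genes, with a median log2 difference of −0.73 against −0.11 over all genes. In batch 1 alone, MII against GV gave 5 higher and 33 lower of 48 tested, against 18.4% higher and 28.5% lower of all genes. In batch 2 alone it gave 4 higher and 28 lower of 46 tested, against 9.53% higher and 14.1% lower of all genes. Lower calls lost in batch 2 alone were those of Psmb3, Psmb10, Psmb11, Psmg1, Psmg2 and Psmg3, and Psmb9 was not tested there. The mean log2 CPM of the 14 core ring genes was 4.84 ± 0.16 in MII and 6.04 ± 0.08 in GV libraries of batch 1 (SD, n = 9 each), and 3.67 ± 0.21 in MII and 4.82 ± 0.21 in GV libraries of batch 2 (n = 7 each). Short transcripts tended to have the lower values: across the 47 genes, Spearman's rho of transcript length with the log2 change was 0.46, and across 16904 genes with a length it was 0.18, both given as descriptions, since the genes share the same libraries and are not independent.

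The stage change was then tested within each strain, each with libraries of its own. In D2, 3 proteasome genes were higher and 19 lower in MII, against 13.1% higher and 15.6% lower over all genes. In F1, 4 were higher and 22 lower, against 14.9% higher and 18.0% lower. In B6, 4 were higher and 24 lower, against 10.3% higher and 16.4% lower. Of 29 genes called lower in any strain 12 were lower in each (Psma3, Psma5, Psma6, Psmb1, Psmb3, Psmb4, Psmb5, Psmb6, Psmb7, Psmc6, Psmd10 and Psme1), and of 4 called higher in any strain 3 were higher in each (Psmd1, Psme3 and Psme4). Over all genes tested, 1688 of 4892 called lower in any strain were lower in each, and 1163 of 3796 called higher in any strain were higher in each. The direction of the log2 change was the same in the 3 strains for 43 of the 47 genes (91.5%) and for 65.8% of all genes. With the batch term of 3 levels, Psme2 lost its call as lower in B6 (adjusted p = 0.0520) and in D2 (adjusted p = 0.0553). The log2 change of Psmb7 was −2.35 ± 0.22 in D2, −2.35 ± 0.22 in F1 and −2.29 ± 0.21 in B6 (SE). That of Psmb5 was −1.47 ± 0.40 in D2, −2.51 ± 0.41 in F1 and −2.72 ± 0.39 in B6, and that of Psmb4 −2.29 ± 0.29 in D2, −2.83 ± 0.29 in F1 and −1.81 ± 0.27 in B6. Psme4 changed by 0.57 ± 0.10 in D2, 0.63 ± 0.09 in F1 and 0.29 ± 0.09 in B6, and Psme3 by 0.72 ± 0.13 in D2, 0.62 ± 0.12 in F1 and 0.47 ± 0.13 in B6. Tested directly, the stage change in D2 against that in B6 gave 0 calls among the 47 genes by edgeR's quasi-likelihood test, against 0.105% of all genes, with 4 genes at an unadjusted p under 0.05 and 1 call by DESeq2. For Psmb5 the difference was 1.25 ± 0.54 and for Psme4 0.27 ± 0.14 on the log2 scale, neither past the adjusted threshold.

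Between the inbred strains, Psmd9, a chaperone of the 19S base encoded at chr5:123228190-123250126 (plus strand), was higher in D2 at both stages. Its reads cannot be told apart from those of Gm26745, which overlaps its exons on the opposite strand. In GV oocytes 5 of 47 proteasome genes differed between D2 and B6, against 20.5% of all genes. Psmd9 was at 72.7, 101, 66.3, 110 and 134 CPM in D2 GV libraries, against 52.5, 44.2, 59.2, 44.2 and 52.2 CPM in B6 GV libraries (batch 1 first, then batch 2). Every D2 library exceeded every B6 library. The log2 difference was 0.91 ± 0.17 (adjusted p = 7.15e-05), with 0.68 in batch 1 alone (adjusted p = 0.0583) and 1.36 in batch 2 alone (adjusted p = 0.000408). Psmd1 was at 57.8, 84.8, 74.7, 157 and 151 CPM in D2 GV libraries, against 108, 107, 110, 241 and 198 CPM in B6 GV libraries. Within each batch D2 was below B6, and the log2 difference was −0.55 ± 0.11 (adjusted p = 0.000251), with −0.52 in batch 1 alone (adjusted p = 0.0225) and −0.48 in batch 2 alone (adjusted p = 0.112).

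Psmc2, a 19S ATPase, was at 61.9, 69.8, 59.0, 68.1 and 70.2 CPM in D2 GV libraries, against 96.5, 75.2, 104, 107 and 71.7 CPM in B6 GV libraries. All D2 libraries were below all B6 libraries, with a log2 difference of −0.46 ± 0.14 (adjusted p = 0.0129) that was lost on leaving out any of 9 of the 32 libraries. It was −0.47 in batch 1 alone (adjusted p = 0.0864) and −0.34 in batch 2 alone (adjusted p = 0.332). Psmd11, a lid subunit, was at 119, 143, 124, 147 and 182 CPM in D2 GV, against 98.9, 107, 94.6, 154 and 106 CPM in B6 GV libraries. The groups overlapped through 1 B6 library of batch 2, and the log2 difference of 0.35 ± 0.12 (adjusted p = 0.0264) was lost without B6 GV batch 2 replicate 2 or D2 GV batch 2 replicate 2. It was 0.43 in batch 1 alone (adjusted p = 0.0432) and 0.36 in batch 2 alone (adjusted p = 0.334). Psmb3 differed by 0.90 ± 0.33 (adjusted p = 0.0465), a call lost on leaving out any of 10 of the 32 libraries and, at 0.82, with the batch term of 3 levels (adjusted p = 0.0583).

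In MII oocytes 13 of 47 genes (27.7%) differed between D2 and B6, against 26.4% of all genes in either direction. In D2 11 were higher (23.4%) and 2 lower (4.26%), against 13.4% higher and 13.0% lower of all genes. Psmd9 was at 56.9, 67.5, 88.6, 89.0 and 94.2 CPM in D2 MII, against 39.1, 31.9, 21.0, 39.9, 33.3 and 29.7 CPM in B6 MII libraries. The groups were again apart, with a log2 difference of 1.30 ± 0.16 (adjusted p = 4.37e-08) that also passed in batch 1 alone (adjusted p = 0.00111) and in batch 2 alone (adjusted p = 0.000102). Psma2 was at 274, 272, 319, 125 and 120 CPM in D2 MII, against 185, 222, 222, 101, 99.1 and 59.6 CPM in B6 MII libraries. D2 was above B6 inside each batch, and the log2 difference was 0.48 ± 0.12 (adjusted p = 0.00188), with 0.41 in batch 1 alone (adjusted p = 0.0346) and 0.45 in batch 2 alone (adjusted p = 0.220). Psme4 was at 508, 480, 560, 566 and 670 CPM in D2 MII, against 393, 422, 397, 459, 493 and 453 CPM in B6 MII libraries, with a log2 difference of 0.38 ± 0.09 (adjusted p = 0.00227) that was not called in batch 1 alone (adjusted p = 0.105) or batch 2 alone (adjusted p = 0.170). The groups overlapped between 480 and 493 CPM.

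Psmg3 was at 4.31, 2.16, 4.75, 0.972 and 0.792 CPM in D2 MII, against 0.738, 1.07, 0.504, 0.778, 0.270 and 0.0638 CPM in B6 MII libraries. D2 was above B6 in each batch, and the log2 difference was 1.78 ± 0.46 (adjusted p = 0.00363), with 2.22 in batch 1 alone (adjusted p = 0.00171) and 1.18 in batch 2 alone (adjusted p = 0.538). The other 7 genes higher in D2 MII were Psmd13, Psmb5, Psmb3, Psmd7, Psmg1, Psmd14 and Psmd6, with log2 differences of 0.38 (Psmd6) to 1.77 (Psmd13), and the lower genes were Psmg4 at −1.90 and Psmd1 at −0.28. The call of Psmd1 was lost on leaving out any of 23 of the 32 libraries, those of Psmd6, Psmd13, Psmb3, Psmd14 and Psmg4 on leaving out any of 3 to 6, and those of Psmb5, Psmd7 and Psmg1 for no library left out. Psmb5 passed in batch 1 alone (adjusted p = 0.00945) and not in batch 2 alone (adjusted p = 0.304). Psmd7 passed in batch 2 alone (adjusted p = 0.0122) and not in batch 1 alone (adjusted p = 0.319). Psmg1 passed in neither (adjusted p = 0.203 in batch 1 and 0.140 in batch 2). Psmd1 passed in batch 1 alone, and Psmd6, Psmd13, Psmb3, Psmd14 and Psmg4 in neither batch alone. Psmg4 stood at 9.01 CPM in B6 MII batch 1 replicate 3, against 0.385 to 1.11 CPM in the other B6 MII libraries, and without that library its difference was −1.165 (adjusted p = 0.159). Without D2 MII batch 2 replicate 1 the difference of Psmb3 was 0.40 (adjusted p = 0.347). With the batch term of 3 levels the calls of Psmb3, at 0.67 (adjusted p = 0.126), and Psmd6, at 0.34 (adjusted p = 0.0822), were lost.

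**Figure D4:**
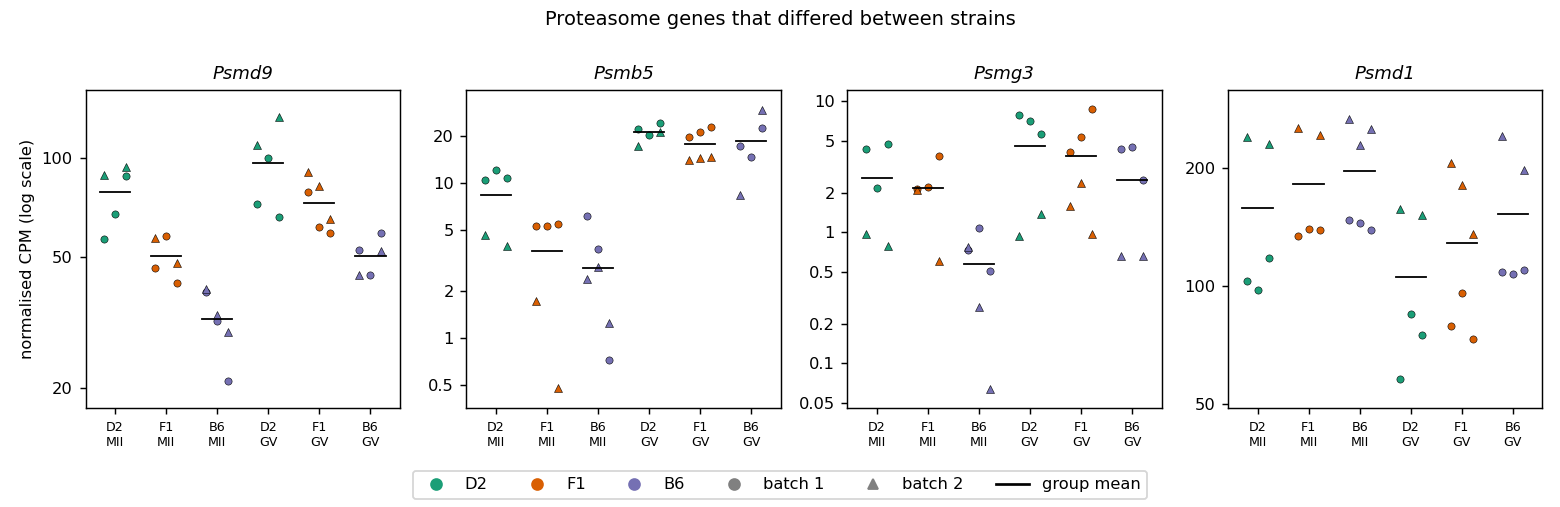
Levels in CPM (log axis) of genes called between strains, with D2, F1 and B6 libraries from left to right at each stage, circles for batch 1, triangles for batch 2 and a black line for the group mean. Psmd9 in D2 lies above every B6 library at both stages, and the F1 mean lies between the parents.

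The F1 hybrid was set against each parent, with the same F1 libraries in both comparisons and the same B6 libraries as in D2 against B6. In GV oocytes 0 of 47 genes differed between F1 and D2 by edgeR's quasi-likelihood test, against 6.05% of all genes, with 3 at an unadjusted p under 0.05 and 0 by DESeq2. Between F1 and B6 GV oocytes 1 gene differed, against 5.50% of all genes. It was Psmd1, at 78.8, 95.6, 73.0, 206, 181 and 136 CPM in F1 GV libraries, against 108, 107, 110, 241 and 198 CPM in B6 GV libraries. Its groups overlapped in batch 2, and the log2 difference of −0.36 ± 0.11 (adjusted p = 0.0334) was lost on leaving out any of 15 of the 32 libraries. It was −0.39 in batch 1 alone (adjusted p = 0.359) and −0.34 in batch 2 alone (adjusted p = 0.267).

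In MII oocytes 3 genes differed between F1 and B6, against 7.36% of all genes. Psmd9 was at 46.5, 58.0, 41.8, 57.1 and 48.1 CPM in F1 MII libraries, all above the 6 B6 MII libraries given above, which reached 39.9 CPM. Its log2 difference was 0.66 ± 0.16 (adjusted p = 0.00620), with 0.63 in batch 1 alone and 0.59 in batch 2 alone. Psmg3 was at 2.15, 2.21, 3.80, 2.12 and 0.607 CPM in F1 MII, against at most 1.07 CPM in B6 MII, with overlap in batch 2 and a log2 difference of 1.78 ± 0.46 (adjusted p = 0.0121), which was lost without F1 MII batch 2 replicate 1. It was 1.77 in batch 1 alone (adjusted p = 0.0376), 1.83 in batch 2 alone (adjusted p = 0.541) and 1.58 with the batch term of 3 levels (adjusted p = 0.0721). Psmd14 was at 16.8, 20.7, 31.6, 12.1 and 14.2 CPM in F1 MII, against 10.1, 14.9, 19.1, 10.7, 6.43 and 6.96 CPM in B6 MII libraries. The groups overlapped in batch 1, and the log2 difference of 0.69 ± 0.18 (adjusted p = 0.0141) was lost without F1 MII batch 1 replicate 5 and in each batch alone, at 0.61 in batch 1 and 0.69 in batch 2. Between F1 and D2 MII oocytes 2 genes differed, against 8.11% of all genes. Psmd9 was lower in F1 than in D2, by −0.64 ± 0.16 on the log2 scale (adjusted p = 0.00900), with −0.53 in batch 1 alone and −0.77 in batch 2 alone, and in each batch alone neither F1 difference of Psmd9 passed the threshold. Psmb5 was at 5.24, 5.27, 5.46, 1.73 and 0.477 CPM in F1 MII, against 10.4, 12.0, 10.7, 4.61 and 3.92 CPM in D2 MII libraries. F1 lay below D2 in each batch, and the log2 difference was −1.25 ± 0.40 (adjusted p = 0.0440), lost on leaving out any of 8 of the 32 libraries and in each batch alone, at −1.04 in batch 1 and −1.91 in batch 2. It was also lost, at −1.21, with the batch term of 3 levels (adjusted p = 0.0517).

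Genes that work with the proteasome under other symbols split in the same comparison of MII against GV. Of 30 tested in 5 lists, 10 were higher and 12 lower in MII, where 22.9% of all genes were higher and 29.0% lower. Among 4 further components and assembly factors of the 26S particle, Sem1, a small 19S subunit, averaged 5.03 ± 3.36 CPM in MII and 24.7 ± 16.7 CPM in GV oocytes (SD, n = 16 each), with a log2 change of −2.25 (adjusted p = 3.95e-15). Adrm1, a ubiquitin receptor of the 19S particle, was lower by a log2 change of −0.37, and Ecpas, a proteasome scaffold, was higher by 0.38. Of 3 proteasome-bound deubiquitinases and ligases 2 were higher, Ube3c by 0.38 and Uchl5 by 0.31. Of 13 tested shuttle receptors and genes of the p97 pathway 5 were higher and 6 lower. Ubqln1, a shuttle receptor, was at 579 ± 78.5 CPM in MII and 365 ± 59.1 CPM in GV oocytes (log2 change 0.67, adjusted p = 1.47e-12), and Vcp, the p97 unfoldase, at 34.3 ± 6.94 CPM in MII and 78.9 ± 18.3 CPM in GV oocytes (log2 change −1.20, adjusted p = 4.49e-12). Ubqln4 changed by −1.14 and Zfand2a by 0.46.

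Among the ubiquitin genes and activating enzymes, Ubb, a polyubiquitin gene, was lower in MII with a log2 change of −1.36, and Rps27a, which encodes ubiquitin fused to a ribosomal protein, was lower with a log2 change of −3.72. Uba1, the main ubiquitin-activating enzyme, was higher in MII, with a log2 change of 0.34 (adjusted p = 2.30e-07). Nfe2l1, the transcription factor that induces proteasome genes, was the called gene among 4 for proteasome transcription and import, at 422 ± 92.9 CPM in MII and 309 ± 73.9 CPM in GV oocytes (log2 change 0.44, adjusted p = 1.90e-07). Between strains, Uba6, an activating enzyme for ubiquitin, was lower in D2 than in B6 by −1.93 in GV (adjusted p = 1.01e-11) and −2.03 in MII oocytes (adjusted p = 1.38e-12) on the log2 scale.

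Exons of 14 of the 49 genes are overlapped by another gene in the annotation, and since the strand setting of the counting was not given in the sources used here, reads of such neighbours cannot be told apart. Among the genes above, Psmd9 shares 1849 bp with Gm26745 on the opposite strand, Psmd1 553 bp with Gm21972 and Htr2b, Psmb7 405 bp with Nek6, Psmd13 342 bp with Sirt3 and Psmg3 280 bp with Gm26938.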

How the data were processed

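RNA of oocyte pools was amplified by single primer isothermal amplification (SPIA), made into libraries with 12 PCR cycles and sequenced as single reads of 50 nt, per the labels' protocols. The reads had no molecular identifiers. Per the submitters' processing notes, HISAT2, SAMtools, featureCounts of Subread 1.5.1 and DESeq2 1.16.1 were used with GRCm38.p4. How featureCounts treated strand and multi-mapped reads is not stated in these sources. The table deposited by the authors gives raw read counts per gene, with NCBI gene identifiers, and 36371 of its 37441 genes matched a RefSeq name. The other 3 entries named no gene, held at most 0.0190% of a library and were left out.

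Genes were filtered with edgeR's filterByExpr on the 6 groups and scaled with trimmed means of M values (TMM). edgeR 4.0.16 fitted a robust quasi-likelihood model with the 6 groups and batch to all 32 libraries in R 4.3.3. Tests were two-sided, adjusted by Benjamini-Hochberg over 19003 genes within each contrast, with a threshold of 0.05. An SE is the size of the log2 change divided by the square root of F. Mean log2 CPM values used a prior count of 3. Pools came from single mothers, and libraries were treated as independent replicates. Whether any libraries shared a mother could not be told here. The highest correlation between libraries was 0.98, and none was a repeat. Floors (3 counts) cover counting error only. Transcript lengths were those of the principal transcript in GRCm38. Sequences and coordinates were from RefSeq, GRCm38.p6. DESeq2 1.42.0, other scalings and filters, single batches, no batch term, a replicate block, a granulosa covariate and leaving out libraries were alternatives, and library totals without a scaling factor and a fit with batch 2 split by date code, giving a batch term of 3 levels, were added after seeing the data. The code was tested on simulated data.

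The members and gene lists were chosen with earlier results of these data known. Values were given for the 6 members with the lowest adjusted p in each direction between stages, the 4 with the lowest in each strain contrast, the catalytic and restricted core subunits, the activators, the inhibitor and the Psmg chaperones, and related genes were named up to 4 per list. Some related genes that met this rule are not reported here. Psmd2, Psmb2, Psmb3 and other members were named to show how their class split. Figures were drawn with matplotlib 3.10.9 in Python 3.11.15.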

Additional observations from a re-analysis of the deposited data

Results flagged for a closer look

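In each of the 6 groups, the named genes were checked for a library far from the others of its group by Dixon's ratio at the 95% level. Of 183 gene and group pairs, 15 were set apart, 13 by a high and 2 by a low library. The rate by chance of about 1 in 20 holds for a single normal sample. These groups mix 2 batches, and a group with reads in only 1 library is always set apart, so that rate does not apply here.

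The low values were Psmb7 at 56.5 CPM in F1 GV batch 2 replicate 3, against 126 to 141 CPM in the other F1 GV libraries, and Psme2 at 2.03 CPM in B6 GV batch 2 replicate 1, against 6.70 to 7.54 CPM in the other B6 GV libraries. The same B6 GV library had Psmd11 at 154 CPM, against 94.6 to 107 CPM in the others, and it is 1 of the 2 GV libraries with granulosa markers within the MII range.

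B6 MII batch 2 replicate 2 stood apart for 3 genes, with Psmd11 at 154 CPM against 85.5 to 106 CPM, Psmb11 at 1.43 CPM against 0 to 0.410 CPM, and Psmb8 at 0.0770 CPM, which is 2 reads, against none in the others. B6 MII batch 1 replicate 3 stood apart for Psmg1, at 21.9 CPM against 4.05 to 10.5 CPM, and for Psmg4, at 9.01 CPM against 0.385 to 1.11 CPM in the other B6 MII libraries. F1 GV batch 1 replicate 5 had Psme1 at 20.6 CPM against 0.424 to 6.74 CPM, and Psmb9 at 2.38 CPM against 0 to 0.757 CPM in the other F1 GV libraries.

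Psmg4 was at 6.80 CPM in F1 MII batch 1 replicate 5, against 0.346 to 1.25 CPM in the others of its group. The remaining high values rested on 10 reads or fewer. Psmb9 was at 0.369 CPM (10 reads) in B6 MII batch 1 replicate 1, against 0 to 0.0324 CPM, and Psmg2 was at 0.292 CPM (9 reads) in B6 MII batch 2 replicate 1, against 0 to 0.0315 CPM. Psma8 was at 0.0845 CPM (2 reads) in D2 MII batch 2 replicate 1 and Psme1 at 0.0432 CPM (1 read) in F1 MII batch 2 replicate 1, with no read in the other libraries of those groups.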

How the results depend on the processing

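The counts of called proteasome genes stayed within 1.5 times of the reported count in 107 cases and not in 31 under other settings, and in 363 cases and not in 21 with 1 library left out. In MII against GV as the mean of the strains, the lower count was 19 with the granulosa covariate and 31 to 35 with 1 library left out, and the higher count was 4 to 6. Within strains, MII against GV gave in B6 11 calls in batch 2 alone, 17 without the batch term, 14 with the replicate block and 14 with the granulosa covariate, in F1 8 in batch 2 alone and 17 with the covariate, and in D2 11 in batch 2 alone. D2 against B6 gave in GV 2 calls in batch 1 alone, 1 in batch 2 alone and 2 without the batch term, and in MII 5, 5 and 4. F1 against B6 in GV gave 2 with median of ratios, with 1 CPM in 16 libraries, with DESeq2 and in batch 2 alone, and 0 in batch 1 alone, without the batch term and without the 2 GV libraries of low granulosa level. F1 against B6 in MII gave 7 with DESeq2, 0 in batch 2 alone and 1 without the batch term. F1 against D2 in MII gave 1 with no filter, 4 with 1 CPM in 16 libraries, 6 with DESeq2, 1 in batch 1 alone, 0 in batch 2 alone and 1 without the batch term. The stage change in D2 against B6 gave 1 with DESeq2. With 1 library left out, calls ran from 3 to 9 for D2 against B6 in GV (3 without B6 GV batch 2 replicate 1, B6 GV batch 2 replicate 2 or D2 GV batch 1 replicate 4, and 9 without B6 MII batch 1 replicate 3), 9 to 14 in MII, 0 to 2 for F1 against B6 in GV (0 without B6 GV batch 2 replicate 1, B6 GV batch 2 replicate 2, B6 GV batch 1 replicate 4 or F1 GV batch 1 replicate 2, and 2 without D2 GV batch 2 replicate 2, F1 GV batch 1 replicate 3 or D2 GV batch 1 replicate 3), 2 to 4 in MII, 0 to 1 for F1 against D2 in GV (1 without B6 MII batch 1 replicate 3, D2 GV batch 1 replicate 3 or D2 GV batch 1 replicate 5) and 1 to 3 in MII (1 without D2 MII batch 2 replicate 1, D2 MII batch 1 replicate 2, 3 or 4, F1 MII batch 2 replicate 1, B6 MII batch 1 replicate 2 or F1 GV batch 1 replicate 3), and for MII against GV 23 to 29 in B6, 25 to 28 in F1 and 19 to 25 in D2. Direction turned for Psmb10 (0.0628) and Psmd12 (−0.0768) in batch 2 alone, Psmd12 (−0.0822) with the granulosa covariate, Psmd12 (−0.0921) and Psmf1 (−0.165) with library totals, and Psmc4 in B6 (0.0223) in batch 2 alone. The causes were not tested, and single batches hold fewer samples. Library totals moved the median of all genes to −0.30, against −0.06 with TMM, and gave 4 proteasome genes higher and 40 lower. With the batch term of 3 levels the calls stayed at 6 higher and 34 lower in MII against GV, and 7 calls within or between strains were lost. Calls were also gained, and these are not named here. F1 against B6 in MII gave 2 higher and 2 lower under it, against 3 higher and 0 lower with 2 levels. Same-numbered libraries correlated by −0.12 to 0.11 over 11 pairs, after centring within each group and batch. Each group held only 2 or 3 libraries per batch, so this cannot decide whether the numbers pair them. The replicate block gave 5 higher and 29 lower in MII against GV. Low read numbers limit Psma8, Psmb8, Psmb9, Psme1 in MII and Psmg2.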
